A study of Gallus gallus with 2 samples.

Results

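The Fanconi anaemia genes of the chicken B cell line DT40 were compared between cells deficient for PTIP and wild-type cells. The genes considered were those of the core complex (FANCA, FANCB, FANCC, FANCE, FANCF, FANCG, FANCL and FANCM) and of its substrate pair (FANCD2 and FANCI), 10 genes in all. Their probe sets were found by the gene symbol in the platform annotation of the array. Of the 10 genes, 8 had a probe set under their symbol, out of 13009 genes on the array, and FANCF and FANCM were not analysed here. The 8 genes had 15 probe sets, and 13 of these probe sets and all 8 of these genes gave a signal above the floor in both arrays.

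DT40 is an established line from the bursa of Fabricius, the organ in which birds make B cells. The PTIP deficient cells are a clone in which all alleles of PAXIP1, the gene for PTIP, were disrupted according to the labels (PTIP-/-/-), and the wild-type cells, also labelled a clone, carry no such disruption. Both were grown at 39 °C, and no other treatment is given. Total RNA of each was hybridised to 1 Affymetrix chicken genome array, so there were 2 arrays, 1 per genotype, and no test between genotypes exists. Differences are therefore described by size, and a difference between clones that has nothing to do with PTIP cannot be told apart from one that has.

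The Fanconi anaemia pathway repairs DNA crosslinks, which join both strands and block replication forks. FANCM, a DNA translocase, brings the core complex to the blocked fork, where FANCL, the ubiquitin ligase subunit, attaches a single ubiquitin to FANCD2 and to FANCI. The modified pair clamps onto DNA and is needed for incision of the crosslink by nucleases, translesion synthesis past the remnant and repair of the broken strand by homologous recombination. DT40 has been used widely to study this pathway, since its high rate of gene targeting made knockouts of the Fanconi genes accessible. PTIP carries BRCT domains, acts in the response to DNA damage and also works with enzymes that methylate histone H3 at lysine 4.

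The measured core complex genes all had a somewhat lower signal in PTIP deficient than in wild-type cells, by 1.06-fold to 1.53-fold. FANCD2 and FANCI had a slightly higher one, by 1.13-fold and 1.09-fold. Both FANCD2 signals were under 131.5, a level that probe sets for reporter sequences reached. The FANCD2 difference is therefore not shown to be one of FANCD2 RNA. With the brightest probe set of each gene, the largest difference was that of FANCL, at 65.4% of wild-type. This order depends on the probe set. FANCA was at 78.9% with its brightest one and between 51.6% and 67.3% with its other measured ones. None of the 8 genes was 2-fold apart in either direction. Of the 9165 genes with both signals above the floor, 4.46% were lower in PTIP deficient cells by 2-fold or more and 5.03% were higher by as much. Of all 8 genes, 6 had a log2 ratio (PTIP deficient over wild-type) below 0, against 47.4% of all measured genes. The summaries of the core genes alone were added after the data were seen. Of the 6 measured core genes 6 had a ratio below 0, and FANCD2 and FANCI both had one above 0, against 52.6%. The median log2 ratio was -0.34 for the 8 genes, -0.35 for the core genes, or 0.78-fold, and 0.03 for all measured genes.

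Values are linear signal intensities, scaled by the authors so that both arrays have the same trimmed mean. A signal was counted as measured where it reached 31.0, which is percentile 40 of all signals. Reaching this floor does not show that a signal exceeds background, since the 57 probe sets whose names mark them as reporter sequences reached 131.5 in these arrays outside 1 bright signal. For a gene with several probe sets the brightest one stands for the gene, and the others are given beside it. Signals of different probe sets are not on a common scale, so levels are compared only between arrays and never between genes.

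In the catalytic part of the core complex, FANCL (Entrez gene 421202, chromosome 3) had signals of 740 in the PTIP deficient array and 1131 in the wild-type array with its only probe set. Its log2 ratio was -0.61, and 10.7% of all measured genes had a lower one. FANCB (Entrez gene 418628, chromosome 1), which holds FANCL in the complex, had signals of 472 in PTIP deficient cells and 609 in wild-type cells, a log2 ratio of -0.37. Its second probe set gave 279 in PTIP deficient and 318 in wild-type cells, a log2 ratio of -0.19. Both FANCB probe sets were thus lower in the PTIP deficient array, and the brighter one, whose name ends in _s_at, belongs to a class that may also hybridise with related sequences.

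FANCC and FANCE belong, with FANCF, to the part of the core complex that binds the FANCD2-FANCI substrate. FANCC (Entrez gene 427468, chromosome Z) had signals of 589 in PTIP deficient cells and 760 in wild-type cells. FANCE (Entrez gene 419891, chromosome 26) had signals of 879 in PTIP deficient cells and 1104 in wild-type cells. Their log2 ratios were close to each other, at -0.37 for FANCC and -0.33 for FANCE, each from the gene's only probe set. In the order of all measured genes, 19.7% had a lower ratio than FANCC and 22.3% a lower ratio than FANCE.

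FANCA and FANCG bind each other and support assembly of the complex in the nucleus. FANCG (Entrez gene 378893, chromosome Z) had almost the same signal in both arrays, 608 in PTIP deficient and 644 in wild-type cells, and its log2 ratio of -0.08 was the smallest in size of the core genes. The only probe set of FANCG is of the same class as the brighter FANCB probe set. FANCA (Entrez gene 415854, chromosome 11) had 287 in PTIP deficient cells and 364 in wild-type cells with its brightest probe set, a log2 ratio of -0.34. It is the only one of these genes with more than 2 probe sets, and its 6 probe sets differed widely in brightness.

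The FANCA probe set next in brightness gave 255 in PTIP deficient and 379 in wild-type cells, a log2 ratio of -0.57, and the third gave 183 in PTIP deficient and 308 in wild-type cells, a log2 ratio of -0.75. These 3 are the FANCA probe sets above the highest reporter signal in both arrays, and all of them were lower in the PTIP deficient array. The fourth, at 45.5 in PTIP deficient and 88.3 in wild-type cells, was above the floor but under that reporter signal, with a log2 ratio of -0.95. The fifth was measured in wild-type cells only, at 36.3 against 4.54 in PTIP deficient cells, which gives a bound of at least 1.17-fold lower against the floor. The sixth was under the floor in both arrays, at 9.58 in PTIP deficient and 8.46 in wild-type cells, and gives no ratio. The ratio of FANCA therefore depends on the probe set, and the mean log2 ratio of its 4 measured probe sets was -0.65, against -0.34 for the brightest alone.

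**Figure D1:**
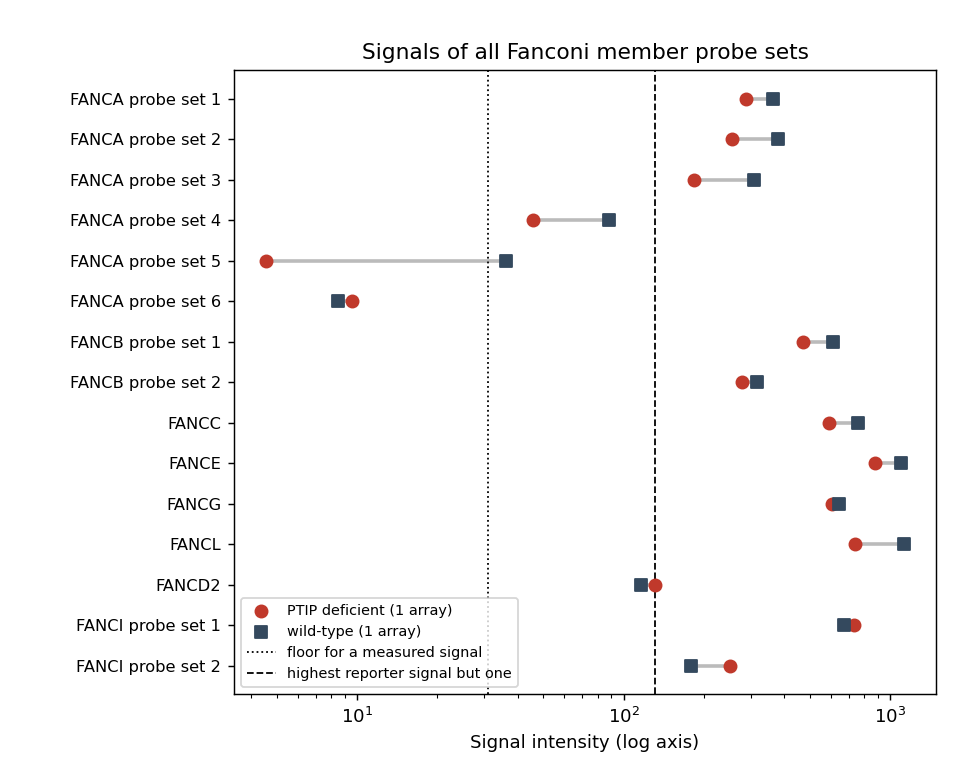
Signal intensity (log axis) of each of the 15 probe sets, with PTIP deficient cells as red circles and wild-type cells as dark squares, 1 array each; probe sets of a gene are numbered by brightness, and the vertical lines mark the floor of 31.0 and the reporter signal of 131.5. The red circle lies left of the square for every core gene probe set except the dimmest of FANCA, and right of it for FANCD2 and both FANCI probe sets.

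The substrate pair lay on the other side of 0. FANCI (Entrez gene 415491, chromosome 10) had signals of 734 in PTIP deficient cells and 675 in wild-type cells, a log2 ratio of 0.12, and its second probe set gave 250 in PTIP deficient and 180 in wild-type cells, a log2 ratio of 0.48. Both belong to the same class as the brighter FANCB probe set. FANCD2 (Entrez gene 415935, chromosome 12) had signals of 130.9 in PTIP deficient cells and 115.9 in wild-type cells with its only probe set, a log2 ratio of 0.18. Both FANCD2 signals are under the highest reporter signal of 131.5, so that this probe set is not shown to report FANCD2 RNA.

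Counted over probe sets, 10 of 10 measured core gene probe sets had a ratio below 0, against 48.7% of all 20310 measured probe sets, and 3 of 3 measured probe sets of FANCD2 and FANCI had one above 0, against 51.3%. Probe sets of a gene read the same RNA and are not replicates. Among the 3404 genes with a mean signal within the range of the 8 genes, 47.7% had a ratio below 0, and the median was 0.03, so the share below 0 was about the same for genes of like brightness. No test of the difference between the core genes and the FANCD2-FANCI pair is possible with 1 array per genotype.

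**Figure D2:**
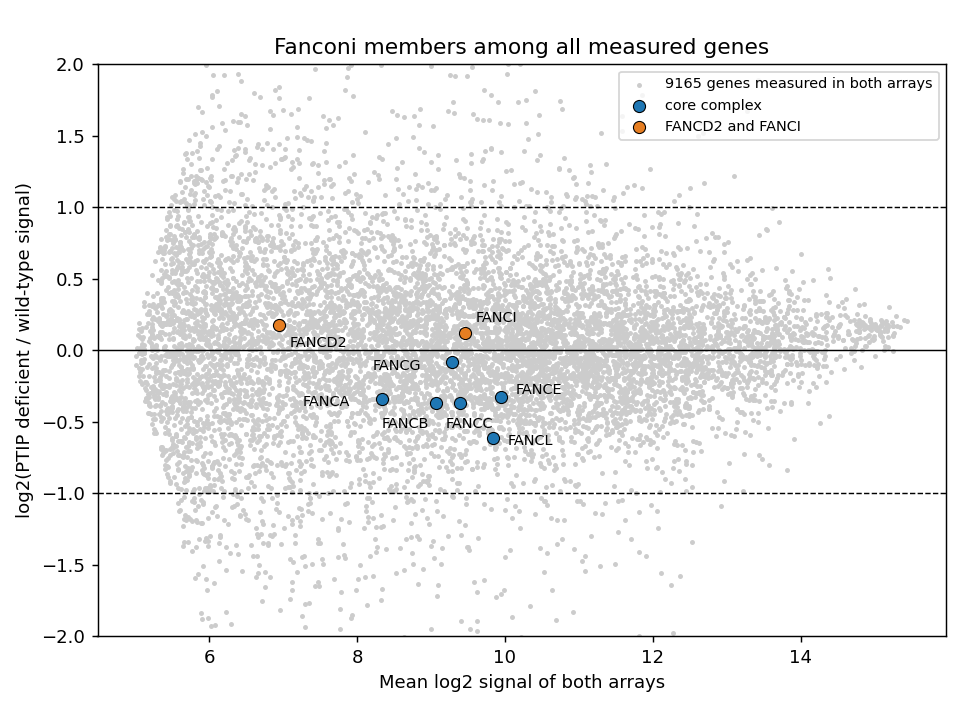
Log2 ratio of PTIP deficient over wild-type signal against the mean log2 signal of both arrays for 9165 genes (grey), with the 6 core genes in blue and FANCD2 and FANCI in orange; dashed lines mark 2-fold, and 162 genes lie outside the plotted range. The core genes lie between -0.61 and -0.08, within the cloud of all genes, and FANCD2 and FANCI lie just above 0.

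The only repeat measurement is that by different probe sets of a gene. Over 4284 genes with 2 measured probe sets, the spread of a single log2 ratio between probe sets was 0.36 (SD), and over the 2860 genes with both signals of both probe sets above the highest reporter signal it was 0.23. Against the wider spread, FANCL, FANCB and FANCC differed by more than 1 SD and none of the 8 genes by more than 2 SD, while 43.1% of all measured genes differed by more than 1 SD in either direction and 18.0% by more than 2. Against the narrower one, which applies to the 7 genes other than FANCD2, FANCA, FANCB, FANCC, FANCE and FANCL differed by more than 1 SD, and FANCL, at 2.69 SD, by more than 2. Of the 6658 genes above the highest reporter signal in both arrays, 54.2% differed by more than 1 such SD in either direction and 26.3% by more than 2, so the sizes of the Fanconi gene ratios were not unusual for these arrays. FANCG and FANCI differed by less than 1 SD on either. All these sizes are of the brightest probe set of a gene. The less bright measured probe sets of FANCA (-0.57, -0.75 and -0.95) and FANCI (0.48) were past the wider spread, and that of FANCB (-0.19) was not. The spread between probe sets covers neither the hybridisation nor the culture or clone. A ratio larger than it is therefore not shown to be larger than the spread between cultures.

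Several other quantities differed between the arrays. The 27 probe sets of the hybridisation controls, bacterial and phage transcripts added to each sample, were all higher in the PTIP deficient array, at a median log2 ratio of 0.30. A second set of added transcripts had 29 probe sets above the highest reporter signal in both arrays. Of these, 21 were higher in the PTIP deficient array, and the median log2 ratio was 0.08. The 3'/5' signal ratio of the actin control probe sets was 1.09 in PTIP deficient and 1.20 in wild-type cells, and that of GAPDH was 0.98 in PTIP deficient and 1.06 in wild-type cells. Genes of chromosome Z, which carries FANCC and FANCG, had a median log2 ratio of -0.16 over 406 measured genes, 66.7% of them below 0. FANCC lay below that median and FANCG above it. On the chromosomes of the other 6 genes the medians lay between -0.03 and 0.08. The part of the controls and of chromosome Z in the ratios was not tested.

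The signals of the disrupted gene and of cell type markers were examined beside the labels. PAXIP1 had signals of 593 in PTIP deficient and 1045 in wild-type cells by the single probe set above the floor, a log2 ratio of -0.82. The sources used here do not place this probe set relative to the disrupted exons, so it does not check the disruption. Of 11 B cell markers on the array, 9 were above the highest reporter signal in each genotype, with a summed signal of 28665 in PTIP deficient and 69603 in wild-type cells and a median log2 ratio of -0.53 over the 10 measured. Much of the gap in the sum came from IGLL1 (3619 in PTIP deficient and 29961 in wild-type cells), POU2AF1 (1943 in PTIP deficient and 8186 in wild-type cells) and CD79B (3732 in PTIP deficient and 9437 in wild-type cells). The 6 measured probe sets of IGLL1 had log2 ratios from -4.23 to -0.30. PAX5 and SH2D6 had ratios above 0. Both PAX5 signals, 121.5 in PTIP deficient and 96.7 in wild-type cells, were under the highest reporter signal. SH2D6 was matched through a synonym to the listed BLNK, so it is not shown to report that marker. Of 8 T cell markers, 3 were above it in PTIP deficient and 1 in wild-type cells, with sums of 16890 in PTIP deficient and 9092 in wild-type cells, most of it from CD3D. Of the others, CD8A had 563 in PTIP deficient and 78.2 in wild-type cells and CD5 had 303 in PTIP deficient and 73.3 in wild-type cells. CD3E and ZAP70 had ratios below 0, at -0.03 and -0.24, with signals under the highest reporter signal in both arrays. CD4, CD28 and LCK were under the floor in both arrays. None of 6 macrophage markers was above the reporter signal in either array (summed signal 304 in PTIP deficient and 268 in wild-type cells). Of 5 mesenchymal markers 3 were above it in PTIP deficient and 1 in wild-type cells (1418 in PTIP deficient and 254 in wild-type cells), most of the PTIP deficient sum being LUM, at 1019 in PTIP deficient and 6.18 in wild-type cells. COL1A1 had 206 in PTIP deficient and 65.7 in wild-type cells, a log2 ratio of 1.65. COL1A2 and COL3A1 had log2 ratios of 0.09 and -0.04, and DCN was under the floor in both arrays. Of 4 genes listed as erythroid markers 1 was above it in each genotype (summed signal 1483 in PTIP deficient and 2295 in wild-type cells). This gene was listed as ALAS2 but matched through a synonym to ALAS1, so it is not shown to report the listed marker. ALAS1 gave most of both sums, at 1395 in PTIP deficient and 2179 in wild-type cells. HBA1, HBAD and SLC4A1 were under the highest reporter signal in both arrays, so no listed erythroid marker is shown to be above it. The part of the cell type markers in the Fanconi gene ratios was not tested, and fewer cells of a type and less RNA per cell cannot be told apart.

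Genes that act in the pathway or beside it were taken from 9 lists with 53 genes, of which 44 were measured in both arrays. The checkpoint, aldehyde removal and replicative helicase lists are of the second kind. Of these 44 genes, 33 had a log2 ratio below 0, against 47.4% of all measured genes, and 11 had one above it. A difference of 2-fold or more was seen for 1 gene, which was lower in PTIP deficient cells (4.46% of all measured genes were), and for 0 genes in the other direction (5.03%). The lists with the lowest medians were the helicase and recombination genes, and none of the 9 medians was above 0.

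Among the genes for proteins that travel with the core complex, the ratios were mixed. Of 4 measured genes, 3 were below 0, and the median log2 ratio was -0.09. CENPX, a histone-fold partner of FANCM, had signals of 3312 in PTIP deficient and 4540 in wild-type cells, a log2 ratio of -0.45. Its own partner CENPS had a log2 ratio of -0.11 and FAAP24, a DNA-binding partner of FANCM, one of -0.07. FAAP100, the partner of FANCB and FANCL, was named after its values were seen. It had 237 in PTIP deficient and 232 in wild-type cells, a log2 ratio of 0.03, beside -0.61 for FANCL and -0.37 for FANCB. FANCL and FAAP100 have 1 measured probe set each, and the difference between these ratios was not tested.

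Among 6 genes that add, remove or read ubiquitin on this pathway, 5 were below 0 and the median was -0.28. RFWD3, a ubiquitin ligase that acts on the single-strand binding protein RPA at stalled forks, was the exception, with a signal of 623 in PTIP deficient and 348 in wild-type cells, a log2 ratio of 0.84. RFWD3 was measured only with 1 probe set, named _s_at, _x_at or _a_at. ATAD5, which brings the deubiquitinase to its substrates and unloads the sliding clamp, had 320 in PTIP deficient and 527 in wild-type cells. Its log2 ratio was -0.72, and both of its measured probe sets gave close values, from -0.72 to -0.71. UHRF1, a chromatin protein that binds crosslinks, had a log2 ratio of -0.48, and its 4 measured probe sets ranged from -0.66 to 0.10. The enzyme pair that works directly with the core complex was named after its values were seen. UBE2T, the conjugating enzyme used by FANCL, had 2690 in PTIP deficient and 3297 in wild-type cells, a log2 ratio of -0.29, and USP1, which removes ubiquitin from FANCD2, had 2886 in PTIP deficient and 3459 in wild-type cells, a log2 ratio of -0.26.

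The nucleases and scaffolds of crosslink incision were split, with 3 of 6 measured genes below 0 and a median of -0.11. ERCC4, named after its values were seen, was counted above 0 at 0.18, but its 5 measured probe sets ranged from -0.80 to 0.88. SLX1A, ERCC1 and MUS81 had no probe set under their symbols. DCLRE1A, a nuclease that digests past the crosslink, had a log2 ratio of 0.49, and FAN1, a nuclease recruited by ubiquitinated FANCD2, one of 0.44. EME1, the partner of the nuclease MUS81, had a log2 ratio of -0.42, and its other measured probe set one of -0.97.

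In the recombination genes that act downstream, several of which are Fanconi genes themselves, 6 of 6 measured genes were below 0 and the median was -0.60, with 1 of the 6, BRIP1 (chosen after its values were seen), under the highest reporter signal at 95.8 in PTIP deficient and 124 in wild-type cells. BRCA1 had signals of 836 in PTIP deficient and 1529 in wild-type cells, a log2 ratio of -0.87, but its 3 measured probe sets ranged from -0.87 to -0.00019. BRCA2, which loads the recombinase, had 222 in PTIP deficient and 401 in wild-type cells, a log2 ratio of -0.86. XRCC2, a paralogue of the recombinase, had 566 in PTIP deficient and 1004 in wild-type cells, a log2 ratio of -0.83. With the mean of its measured probe sets BRCA1 was at -0.51.

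Of 5 measured translesion synthesis genes 4 were below 0, and the median was -0.05. POLH, the polymerase that bypasses ultraviolet lesions, was the 1 gene past 2-fold among the list genes measured in both arrays. It had 488 in PTIP deficient and 1026 in wild-type cells (2.10-fold lower), measured with 1 probe set of the class that may hybridise with related sequences. REV1, a scaffold of translesion polymerases, had a log2 ratio of -0.57 by each of its measured probe sets. REV3L, the catalytic subunit of polymerase zeta, had signals of 76.8 in PTIP deficient and 62.0 in wild-type cells, both under the highest reporter signal.

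Of 4 genes of the BLM helicase complex, which joins the core complex through FANCM, 2 were below 0 and the median was -0.22. RMI2, a subunit of that complex, had a log2 ratio of -0.58 and the helicase BLM one of -0.52. RMI2 and BLM were each measured only with 1 probe set, named _s_at, _x_at or _a_at. TOP3A, the topoisomerase of the complex, was at 0.31, and its measured probe sets were of both signs, from -0.33 to 0.31. Of 8 genes of the ATR checkpoint, whose kinase phosphorylates FANCD2 and FANCI, 5 were below 0 and the median was -0.08. The ATR partner ATRIP had a log2 ratio of -0.46, with -0.19 for its other measured probe set. The activator TOPBP1 had one of 0.45 and HUS1, a subunit of the checkpoint clamp, one of 0.44, the last with probe sets of both signs.

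Formaldehyde and acetaldehyde are known sources of the crosslinks that this pathway repairs, and the enzymes that remove them were examined too. The gene listed as ADH5, the formaldehyde-removing dehydrogenase, was matched through a synonym to ADH4, so ADH4 is not shown to report the listed enzyme. ADH4 had 11433 in PTIP deficient and 12216 in wild-type cells, a log2 ratio of -0.10. ALDH2, the acetaldehyde dehydrogenase, was measured in wild-type cells only, at 138.6, against 14.6 in PTIP deficient cells. It was at least 4.47-fold lower against the floor but at least 1.05-fold lower against the highest reporter signal.

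The replicative helicase genes MCM2, MCM3, MCM5 and MCM6, which are expressed with DNA replication, were the lowest of the lists. All 4 were below 0, with a median of -0.68. MCM3 had 3157 in PTIP deficient and 5589 in wild-type cells, a log2 ratio of -0.82. MCM5 had a log2 ratio of -0.76 and MCM2 one of -0.59. MCM6, whose values were added after they were seen, had one of -0.44, and its 3 measured probe sets ranged from -0.44 to -0.09. MCM2, MCM3 and MCM5 were each measured only with a probe set named _s_at, _x_at or _a_at. Without such probe sets MCM6 was at -0.09. MCM4 and MCM7 had no probe set under their symbols. The lower signals of the core genes thus stood beside lower signals of these helicase genes in the same array, and the part of this shared difference in the core gene ratios was not tested.

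**Figure D3:**
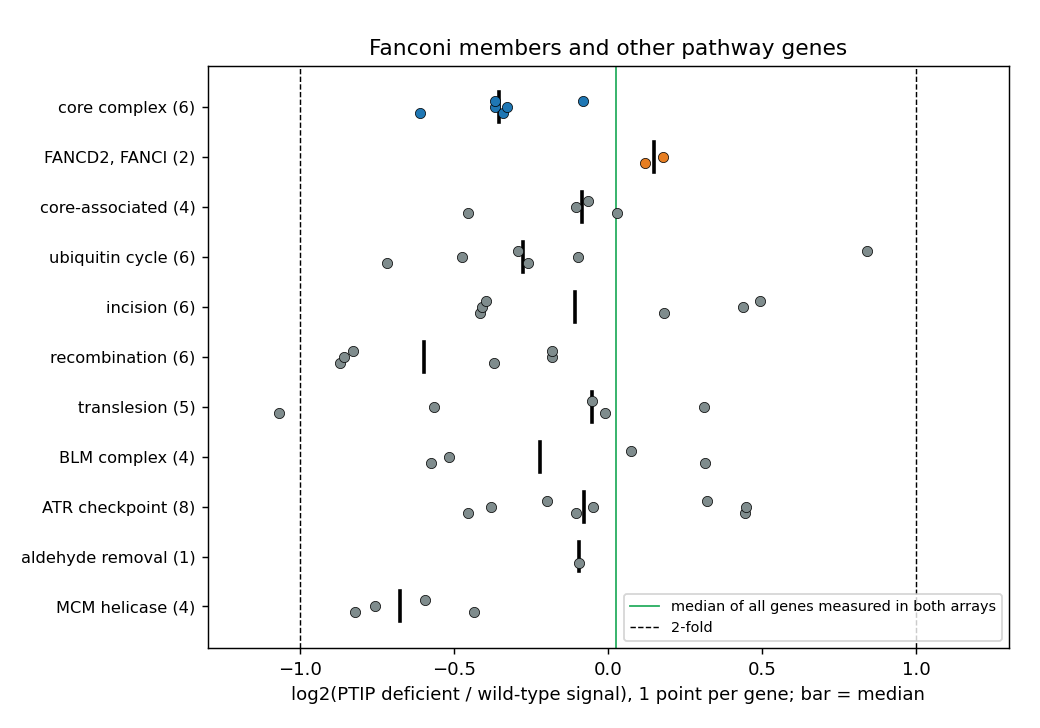
Log2 ratio of PTIP deficient over wild-type signal for each gene measured in both arrays, by list, with the number of genes in brackets, the list's median as a black bar, the median of all genes (0.03) as a green line and 2-fold as dashed lines. All 6 core genes lie left of the green line, FANCD2 and FANCI right of it, and the medians of the recombination and MCM lists lie furthest left.

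The direction of the 8 Fanconi genes was the same under all alternatives that gave a value, which were 10 for FANCA, FANCB, FANCC, FANCE and FANCL and 9 for FANCG, FANCI and FANCD2. A change of floor leaves these ratios as they were, so it is no check of their direction. FANCL lay between -0.64 and -0.59 on the log2 scale, FANCC between -0.39 and -0.35, FANCE between -0.36 and -0.32, and FANCG between -0.11 and -0.08. FANCA and FANCB moved with the choice of probe sets, FANCA between -0.65 and -0.31 and FANCB between -0.40 and -0.19. FANCI lay between 0.09 and 0.30 and FANCD2 between 0.14 and 0.19.

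**Figure D4:**
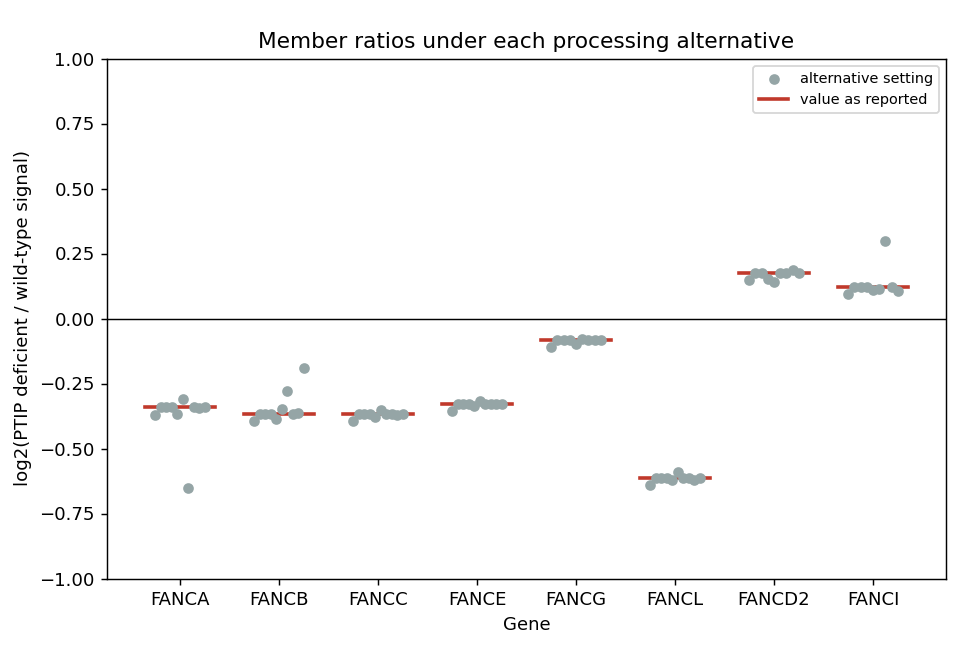
Log2 ratio of PTIP deficient over wild-type signal of each Fanconi gene as reported (red bar) and under each alternative that gave a value (grey points). No point crosses 0, and the widest ranges are those of FANCA, from -0.65 to -0.31, FANCB, from -0.40 to -0.19, and FANCI, from 0.09 to 0.30.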

How the data were processed

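RNA of 1 PTIP deficient and 1 wild-type DT40 culture was measured on 1-colour Affymetrix arrays. The deposited values are signal intensities, linear and positive, for 38535 probe sets, and the authors processed the scans with GCOS, per the submitters' processing notes; the sources used here do not give its version, its algorithm or the genome build behind the array. After trimming below percentile 2 and above percentile 98, both arrays had a mean of 499.9, the mark of scaling to 1 target, which hides any difference in RNA per cell. The 96 control probe sets were left out and no further scaling was applied. The platform annotation named the genes: 27178 probe sets had 1 symbol, 177 several and 11180 none, and 26863 matched GRCg7b RefSeq by Entrez identifier, from which chromosomes and synonyms were taken.

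Each gene was represented by its brightest probe set (mean log2 signal of both arrays), and a log2 ratio was formed where both signals reached the floor. With 1 array per genotype no p-value or standard error is given, and the number of arrays limits the precision. All Fanconi genes, PAXIP1 and up to 3 genes per list with the largest absolute ratios are named. The genes and lists were chosen with earlier results of these data known. The calculation was tested on simulated data with known ratios. All probe sets of a gene were given the same true ratio there, with less noise than the spread between probe sets in these arrays. This checks the arithmetic and not the error of the ratios reported. Alternatives were 3 other scalings, other floors, a pseudocount of 32, the mean of probe sets, and leaving out _s_at, _x_at and _a_at probe sets. Python 3.11.15, pandas 2.3.3, NumPy 2.4.6 and statsmodels 0.14.6 were used.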

Additional observations from a re-analysis of the deposited data

Results flagged for a closer look

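Of the 57 reporter probe sets, 1 gave 2675 in PTIP deficient cells and 5.54 in wild-type cells. The highest other reporter signal was 131.5, which served above as the reporter level, with the bright signal left out. The bright signal is given because it lies far above the level of the wild-type array, which has no disrupted allele. The sequence behind this probe set is not named in the tables used here.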

How the results depend on the processing

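Over the 10 alternatives, 1 of them (the floor at the highest reporter signal) and the core gene summaries having been added after the data were seen, 0 of 77 values of the Fanconi genes changed sign and 0 moved by more than 1 probe set SD. Many of these values could not move. Another floor decides only whether a gene is measured and leaves its ratio as it was. The mean of probe sets changes no gene with 1 measured probe set. Leaving out _s_at, _x_at and _a_at probe sets changes no gene whose brightest probe set is of another class. The number of core genes below 0 was 6 of 6 throughout, except 5 of 5 without _s_at, _x_at and _a_at probe sets, which left out FANCG and FANCI, and 0 genes were 2-fold apart under any. In 3 values a ratio moved by over 1.5 times: FANCA to -0.65 and FANCI to 0.30 with the mean of measured probe sets, and FANCB to -0.19 without those probe sets. The floor at the highest reporter signal left out FANCD2. The spread between probe sets depends on the floor: it was 0.58 with the floor at percentile 20, 1.06 with none and 0.23 with the floor at the highest reporter signal. Of the genes of the other lists and PAXIP1, 1 of 45 changed sign: CHEK1, at 0.32, was at -0.45 without _s_at, _x_at and _a_at probe sets. EME1, at -0.42, was at -0.97 without them. Without them no value was left for ADH4, BLM, CENPS, CENPX, CLSPN, FAAP24, MCM2, MCM3, MCM5, PAXIP1, POLH, RAD18, REV3L, RFWD3, RMI2 and UBE2T. With the mean of probe sets BRCA1 was at -0.51 and CLSPN, at -0.11, was at -0.57. No paired analysis was possible because each genotype has 1 sample.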
